A study of Homo sapiens with 12 samples.

Results

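The strands of the miR-221 and miR-222 cluster are the mature microRNAs cut from 2 neighbouring hairpins on the short arm of chromosome X. They were taken by name from both deposited tables, and all 4 (hsa-miR-221-3p, hsa-miR-221-5p, hsa-miR-222-3p and hsa-miR-222-5p, written without the species prefix from here on) were present among the 837 microRNAs tested in one table and the 868 in the other, 952 different microRNAs in all. The measurements come from 12 small-RNA libraries of the human erythroleukaemia line K562. Cells given an sgRNA directed at CYRANO, a long non-coding RNA (sgCYRANO, 3 libraries), were compared with cells given a non-targeting sgRNA (sgNT, 3 libraries). ZSWIM8-/- cells (ZSWIM8 KO, 3 libraries) were set against wild-type cells (WT, 3 libraries), and the labels give no sgRNA for either of these groups. All 12 libraries came from cells grown in RPMI with serum and antibiotics. The triplicates of a group are of 1 cell line, so each p-value measures the spread between samples of the lines compared. A difference that a ZSWIM8 KO line carries for another reason cannot be told apart from the loss of ZSWIM8, and the sources used here do not say whether that line is 1 clone.

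miR-221 and miR-222 repress CDKN1B, which encodes the cell cycle inhibitor p27, and KIT, a receptor needed by early erythroid precursors, and their levels are known to decline as erythroid precursors mature. Both belong to the microRNAs for which target-directed decay has been described, in which extensive pairing to a target RNA leads to loss of the bound microRNA through ZSWIM8, which recruits substrates to a Cullin-RING ubiquitin ligase. For miR-221 and miR-222 the described target is the BCL2L11 mRNA, and for miR-7 it is CYRANO. In each hairpin the 3p strand is the usual guide strand and the 5p strand its passenger.

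The mature sequences, from RefSeq with coordinates on GRCh38.p14, show what the strands share, with the seed (bases 2 to 8) in capitals. A sequence was found for 3 of the 4 strands. The 3p strands are identical over their first 8 bases and so have the same seed, and are identical at 11 of 21 positions when aligned at their 5′ ends.
miR-221-3p (chrX:45746180-45746202, - strand): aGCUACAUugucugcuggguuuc
miR-222-3p (chrX:45747036-45747056, - strand): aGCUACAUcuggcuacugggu
miR-222-5p (chrX:45747073-45747094, - strand): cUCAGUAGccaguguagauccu
Of the 2370 mature microRNAs in the same table, 0 others carried either seed, and each of these strands has 1 locus.

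The 2 hairpins are shown because their arms are compared further on, with the annotated mature strands of the table in capitals. They lie 748 bases apart on the - strand, miR-222 upstream of miR-221.
MIR222 (chrX:45747015-45747124, - strand): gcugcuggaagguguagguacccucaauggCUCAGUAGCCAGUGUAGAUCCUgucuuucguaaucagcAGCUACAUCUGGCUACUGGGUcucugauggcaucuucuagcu
MIR221 (chrX:45746157-45746266, - strand): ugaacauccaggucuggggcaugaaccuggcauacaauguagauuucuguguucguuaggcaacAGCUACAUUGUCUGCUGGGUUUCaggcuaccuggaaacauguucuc
Both hairpins fall in the intron of the 2-exon transcript MIR222HG-201 of the host gene MIR222HG (chrX:45745211-45770274 in GENCODE 29, GRCh38, - strand), 23150 and 24008 bases after its start for miR-222 and miR-221. The second annotated transcript of this non-coding gene does not reach them. The tables give no coordinates, and the submitters' processing notes name another build, hg19.

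Because all 4 strands come from this one host gene, its promoter is shown too, 250 bases before to 50 after the RefSeq start, with matches to 4 motifs in capitals.
MIR222HG promoter (chrX:45770218-45770517, - strand): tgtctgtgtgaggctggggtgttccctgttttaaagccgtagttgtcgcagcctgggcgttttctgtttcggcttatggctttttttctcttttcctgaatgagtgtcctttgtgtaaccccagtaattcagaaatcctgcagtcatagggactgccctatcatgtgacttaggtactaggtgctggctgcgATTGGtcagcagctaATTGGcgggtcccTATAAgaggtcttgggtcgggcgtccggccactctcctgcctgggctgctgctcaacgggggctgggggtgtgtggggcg
The letters TATAA start 30 bases before the start (position -30), and CCAAT lies on the opposite strand at positions -58 and -43. On either strand TATAA is found in 20.4% and CCAAT in 34.6% of 35116 promoters of the same length. GATAA (22.7% of promoters) and TGACTCA (4.95%) had 0 matches in this window on either strand, and no motif overlapped another.

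The values are those of the authors' 2 deposited edgeR comparisons, from which the mean level of each group was recovered in CPM, the reads of a strand scaled to a library of 1000000. The table headers give no direction, and a positive fold change was read as higher in sgCYRANO or in ZSWIM8 KO, the reading under which miR-7-5p is higher in both. The opposite reading would exchange the 2 groups of a comparison in every sentence below. The ± values are standard errors computed from the p-values of the tables, and the threshold was an adjusted p of 0.05. Nearly all group means under 2 CPM lay on sums of whole reads, which gave the library totals: 1850000, 1770000 and 1670000 reads for sgCYRANO, 2300000, 1640000 and 1550000 for sgNT, 2490000, 2480000 and 2090000 for ZSWIM8 KO, and 1850000, 1100000 and 861000 for WT. They count reads of the tested microRNAs, since their levels summed to 1000000 CPM in each group, and do not give the sequencing depth. These totals cannot be assigned to replicate numbers. A mean of 0 allows up to 0.567 CPM in sgCYRANO, 0.546 in sgNT, 0.425 in ZSWIM8 KO and 0.788 in WT, the limit of 3 reads over a group, which covers counting error only. Of the erythroid markers, miR-451a, miR-486-5p, miR-486-3p, miR-144-5p and miR-144-3p were measured in all groups, miR-486-5p at between 11701 and 14449 CPM. The liver marker miR-122-5p lay at or under 2.08 CPM, and the neuronal miR-124-3p and muscle miR-133a-3p were not among the tested rows. miR-375-3p, a strand of pancreatic islets and some epithelia, had 49.2 CPM in ZSWIM8 KO and 3.70 CPM in WT, and did not pass (adjusted p = 0.201 in the authors' deposited table, edgeR quasi-likelihood test). The epithelial miR-200 family, looked up after its values were seen, had log2 fold changes in ZSWIM8 KO in the authors' deposited table of 0.09 for miR-200a-3p, -0.16 for miR-200a-5p, -0.51 for miR-200b-3p, -2.18 for miR-200b-5p, -0.10 for miR-200c-3p, 2.31 for miR-141-3p and -0.75 for miR-429. The lowest adjusted p among them was 0.337, for miR-141-3p (edgeR). The part of miR-375-3p in the cluster's change was not tested.

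In cells with an intact ZSWIM8 gene the 3p strands were among the more abundant microRNAs tested, and they held nearly all of the cluster's CPM. miR-222-3p, the most abundant of the 4, had a group mean of 181.1 CPM in sgCYRANO, 206.1 CPM in sgNT and 270.7 CPM in WT. miR-221-3p had 110.9 CPM in sgCYRANO, 134.4 CPM in sgNT and 159.8 CPM in WT. In WT these levels were rank 98 and rank 116 of 868 microRNAs. The passenger miR-221-5p had 9.67 CPM in sgCYRANO, 11.1 CPM in sgNT and 15.5 CPM in WT. miR-222-5p, the scarcest, had 0.380 CPM in sgCYRANO, 1.23 CPM in sgNT and 2.41 CPM in WT. The order miR-222-3p, miR-221-3p, miR-221-5p, miR-222-5p was the same in every group, ZSWIM8 KO included, and each strand was highest in WT, then sgNT, then sgCYRANO, then ZSWIM8 KO. The 2 tables were made separately, so the step between sgNT and WT was not tested, and the step between sgCYRANO and sgNT did not pass for any of the 4 strands, as described below.

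**Figure D1:**
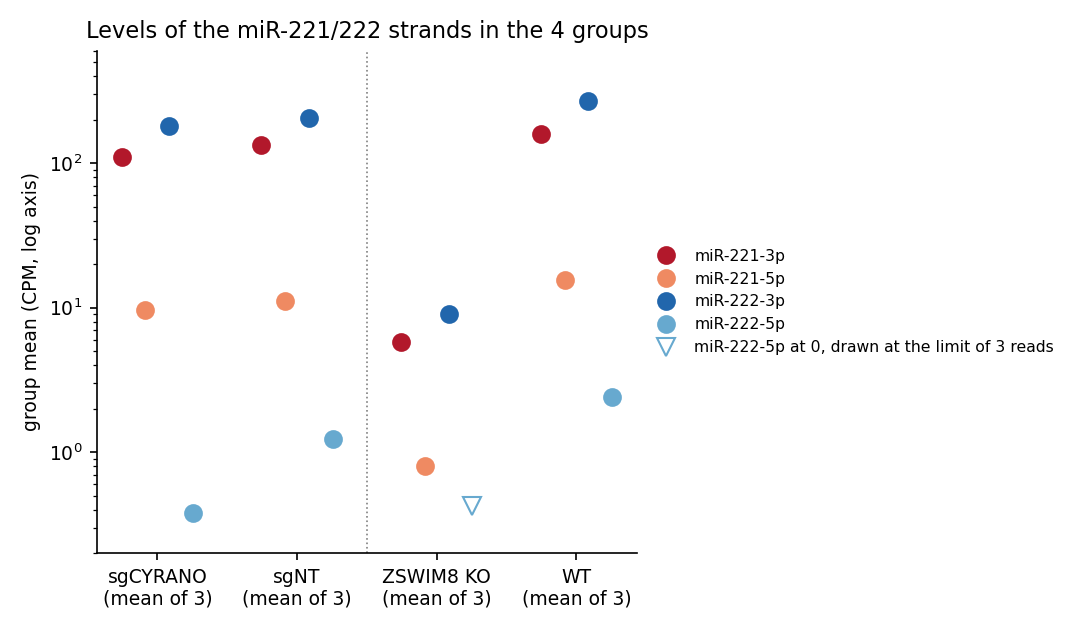
Group mean level of each strand in CPM (log axis), 1 point per strand and group, each the mean of 3 libraries. The open triangle marks miR-222-5p in ZSWIM8 KO, with a mean of 0, drawn at the limit of 0.425 CPM. The other 3 strands lie lower in ZSWIM8 KO than in WT by 19.3-fold to 29.7-fold.

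ZSWIM8 KO cells were compared with WT to see what loss of ZSWIM8 does to microRNA levels, and in this comparison the whole cluster fell. miR-222-3p had 9.10 CPM in ZSWIM8 KO against 270.7 CPM in WT, a 29.7-fold lower mean, and the authors' deposited table gave a log2 fold change of -4.88 ± 0.58 (adjusted p = 5.87e-15, edgeR quasi-likelihood test). miR-221-3p had 5.76 CPM in ZSWIM8 KO against 159.8 CPM in WT, 27.7-fold lower, with -4.76 ± 0.48 in the authors' deposited table (adjusted p = 2.71e-20, edgeR). In ZSWIM8 KO the 2 guide strands stood at ranks 316 and 358 of 868. The passenger miR-221-5p had 0.805 CPM in ZSWIM8 KO against 15.5 CPM in WT, 19.3-fold lower, with -4.07 ± 0.63 in the authors' deposited table (adjusted p = 7.83e-09, edgeR). miR-222-5p had a mean of 0 in ZSWIM8 KO against 2.41 CPM in WT, at least 5.67-fold lower by the limit of 3 reads over the group with the WT mean taken as exact (adjusted p = 0.0214 in the authors' deposited table, edgeR). All 4 strands passed the threshold as lower, where 9.91% of the 868 microRNAs passed in either direction and 5.18% passed as lower. With F read at the 4 degrees of freedom of 6 libraries, 2 of the 4 stayed called, and miR-221-5p (adjusted p = 0.15) and miR-222-5p (adjusted p = 0.425) did not (edgeR, authors' deposited table). In bulk RNA, fewer cells that hold a microRNA and less of it per cell cannot be told apart.

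The 4 strands together summed to 15.7 CPM in ZSWIM8 KO and 448.4 CPM in WT, so 3.49% of the WT level was left. Of the 304 microRNAs with a mean over both groups of 10 CPM or more, miR-222-3p and miR-221-3p had the 2 lowest fold changes. Both reach that mean through WT alone. Among all 868 they held ranks 2 and 3 from the lowest, after miR-1263 at -6.00 in the authors' deposited table. The 44 other microRNAs with 100 to 300 CPM in WT had log2 fold changes in the authors' deposited table between -2.13 (miR-100-5p) and 1.01. Their median was 0.06, and 5 of them were called lower and 5 higher. Of the 58 others with 10 to 20 CPM in WT, the range of miR-221-5p, 2 were called lower and 2 higher, the lowest at -2.25 (miR-944). The part of starting level in the fall was not tested. The median of microRNAs at 10 CPM or more was itself 0.13 in this table, and relative to it the log2 fold changes of miR-221-3p, miR-221-5p, miR-222-3p and miR-222-5p were -4.89, -4.20, -5.0 and -4.47. The median over the 4 strands was -4.55, beside 0.08 over all 868. This median and the -4.47 of miR-222-5p depend on the prior count, since that strand had a mean of 0 in ZSWIM8 KO.

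**Figure D2:**
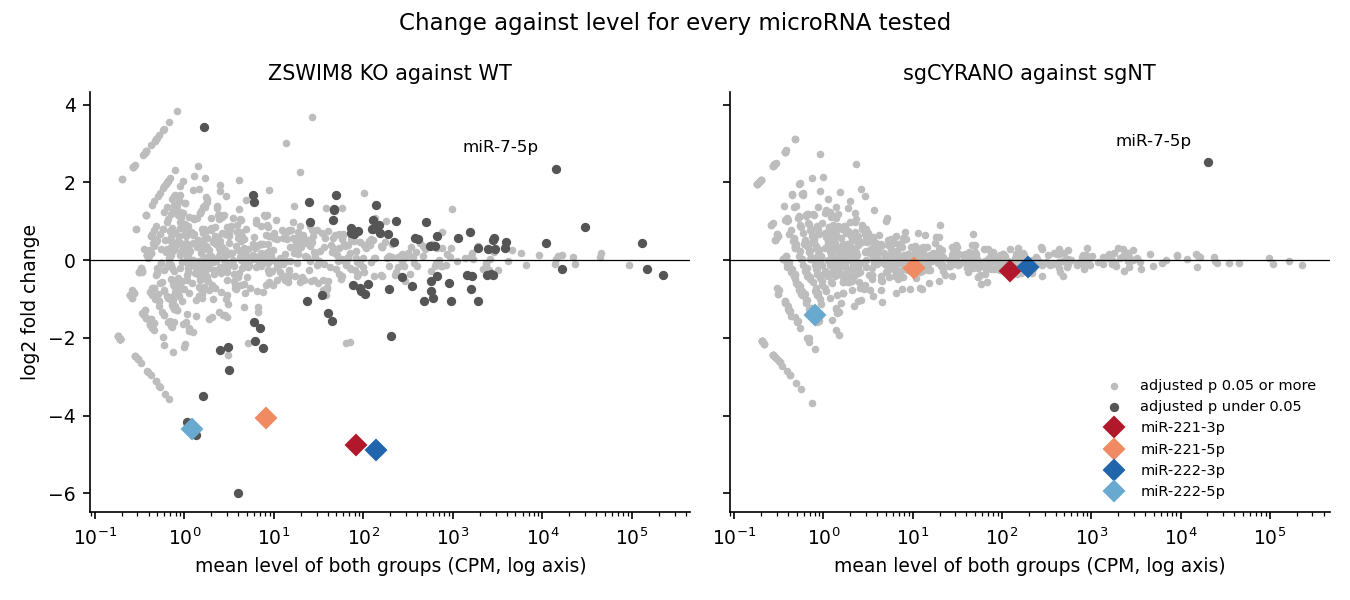
Log2 fold change against mean level (CPM, log axis) for every microRNA tested, with ZSWIM8 KO against WT on the left and sgCYRANO against sgNT on the right. Diamonds are the 4 cluster strands and dark points pass an adjusted p of 0.05. On the left the 3p strands, at -4.76 and -4.88, lie below every other microRNA with a mean level of 10 CPM or more. They reach that level through WT alone. On the right they lie near 0.

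The fall rests on few reads in ZSWIM8 KO, though that group had the most reads counted for the tested microRNAs. With 7060000 reads in its 3 libraries, the group mean of miR-222-3p stands for between 58 and 67 reads and that of miR-221-3p for between 37 and 43 reads, depending on how they are spread over the libraries. In WT, with 3810000 reads in all, between 700 and 1503 reads stand behind miR-222-3p and between 413 and 887 behind miR-221-3p. For the scarcest strands the means could be split by library. miR-222-5p had 0 reads in each ZSWIM8 KO library, against 4, 3 and 2 reads in the WT libraries of 1850000, 1100000 and 861000 reads. These WT reads equal 2.16, 2.74 and 2.32 CPM, though counts this low cannot show whether the WT libraries were alike. With the counting error of the 9 WT reads included as well, the exact 95% upper limit of the ZSWIM8 KO level was 0.273 times that in WT, a weaker bound than the 5.67-fold above. miR-221-5p had 6 reads in ZSWIM8 KO, all in the 2 libraries with the higher totals, of 2490000 and 2480000 reads. It had 0 in the library of 2090000 reads.

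The errors of the 4 fold changes were larger than those of microRNAs of like mean level, taken over both groups. A strand with few reads in 1 group has a larger counting error than a strand with even groups of that mean. The factors below therefore do not show a wider spread between replicates, which was not tested. Relative to microRNAs of like level, the error of miR-221-3p was 1.35 times and that of miR-222-3p 1.49 times as large when computed from F. For miR-221-5p and miR-222-5p these factors were 1.33 and 1.38. The deposited F and p together give 57.7 denominator degrees of freedom for miR-221-3p and 29 for miR-222-3p, where 164.1 was the most frequent value in the table and 62 of 435 microRNAs with an F over 1 had fewer than 30. miR-222-3p therefore had the larger F (315.0, against 256.6 for miR-221-3p) and yet the larger p.

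The sgCYRANO cells, given an sgRNA directed at the decay target of miR-7, showed no such fall, and 0 of the 4 strands passed. miR-221-3p had 110.9 CPM in sgCYRANO and 134.4 CPM in sgNT, with a log2 fold change of -0.28 and a 95% interval of -0.55 to -0.01 in the authors' deposited table (adjusted p = 0.816, edgeR). For miR-222-3p the means were 181.1 CPM in sgCYRANO and 206.1 CPM in sgNT, the interval -0.43 to 0.06 and the adjusted p 0.980 (edgeR, authors' deposited table). The intervals of the 2 guide strands thus end at -0.55 and -0.43 and leave out a fall of the size found in ZSWIM8 KO. For miR-221-5p, at 9.67 CPM in sgCYRANO and 11.1 CPM in sgNT, the interval was wider, -0.91 to 0.51. miR-222-5p had 1, 0 and 1 reads in the sgCYRANO libraries of 1850000, 1770000 and 1670000 reads and 4, 0 and 3 reads in the sgNT libraries of 2300000, 1640000 and 1550000 reads. The groups overlapped at 0 reads, and the ratio of sgCYRANO to sgNT was 0.297 with an exact 95% counting interval of 0.0301 to 1.56. A change of this strand was therefore not detectable at these read totals. Of all 837 microRNAs 0.119% passed in either direction and 0% passed as lower with the deposited edgeR test. At an unadjusted p under 0.05 there were 49 microRNAs, 25 of them lower, and 1 of the 4 strands, miR-221-3p (edgeR, authors' deposited table). All 4 fold changes lay below 0, as did 48.6% of those in the table, and the 4 strands summed to 302.1 CPM in sgCYRANO and 352.9 CPM in sgNT.

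**Figure D3:**
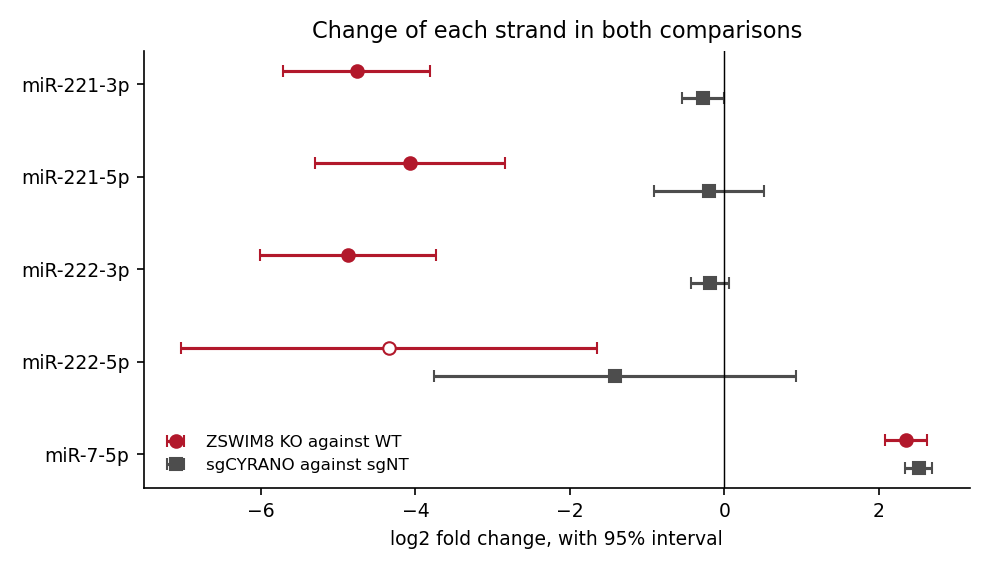
Log2 fold change of the 4 cluster strands and of miR-7-5p, with 95% intervals from the deposited p-values, for ZSWIM8 KO against WT (circles) and sgCYRANO against sgNT (squares). The open circle is miR-222-5p, whose ZSWIM8 KO mean is 0 and whose fitted value depends on the prior count. miR-7-5p lies at 2.35 and 2.52, while the cluster strands lie below -4 in ZSWIM8 KO alone.

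The difference between both comparisons was tested directly, since they share no libraries. The log2 fold change in ZSWIM8 KO minus that in sgCYRANO was -4.49 ± 0.50 for miR-221-3p (adjusted p = 3.3e-16, two-sided normal test on the edgeR values of 753 microRNAs), with a 95% interval of -5.47 to -3.50. For miR-222-3p it was -4.69 ± 0.59 (adjusted p = 8.01e-13) and for miR-221-5p -3.87 ± 0.73 (adjusted p = 6.54e-06). For miR-222-5p it was -2.92 ± 1.82 and did not pass (adjusted p = 0.478). Of the 753 microRNAs 6.64% passed this test. miR-7-5p, the strand that CYRANO is known to destabilise, had 23494 CPM in ZSWIM8 KO against 4617 CPM in WT and 34885 CPM in sgCYRANO against 6102 CPM in sgNT, and its difference was -0.17, with an interval of -0.49 to 0.16. The direction of both comparisons was set on miR-7-5p, so its like sign in both was given by that choice. By this normal test the change differed between both comparisons for 3 of the 4 cluster strands, while for miR-7-5p the difference did not pass (adjusted p = 0.766). The test was not repeated with F read at 4 degrees of freedom. At that reading 1 of the 3, miR-221-5p, was not called in ZSWIM8 KO (adjusted p = 0.15, edgeR), where it had 6 reads.

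The arms of each hairpin changed by amounts that did not differ beyond their error. Each hairpin yields 1 guide and 1 passenger strand from the same precursor, and their changes were set against each other. In ZSWIM8 KO the 3p change minus the 5p change was -0.69 ± 0.79 for miR-221 (adjusted p = 0.930, normal test over 188 hairpins with both arms measured) and -0.53 ± 1.49 for miR-222 (adjusted p = 0.984). The arms come from the same libraries, so these errors are not independent. Their intervals are wide, and for miR-222 rest on a strand at 0 in ZSWIM8 KO. Over the 188 hairpins 3.72% had an arm difference past the threshold. Both arms were called lower in 5 of the 188, or 2.66%: miR-221, miR-222, miR-1908, miR-21 and miR-25. Hairpins with negative fold changes in both arms that were not both called are not counted here. For miR-221 and miR-222 the call of the 5p arm is lost when F is read with 4 degrees of freedom, as given above. The other 3 fell far less, with 3p and 5p log2 fold changes of -1.59 and -0.88 for miR-1908, -0.73 and -0.38 for miR-21 and -0.23 and -0.98 for miR-25 in the authors' deposited table. In sgCYRANO the 3p change minus the 5p change was -0.08 ± 0.39 for miR-221 and 1.23 ± 1.20 for miR-222, and 0% of 180 hairpins passed by the normal test, with 6 at an unadjusted p under 0.05.

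**Figure D4:**
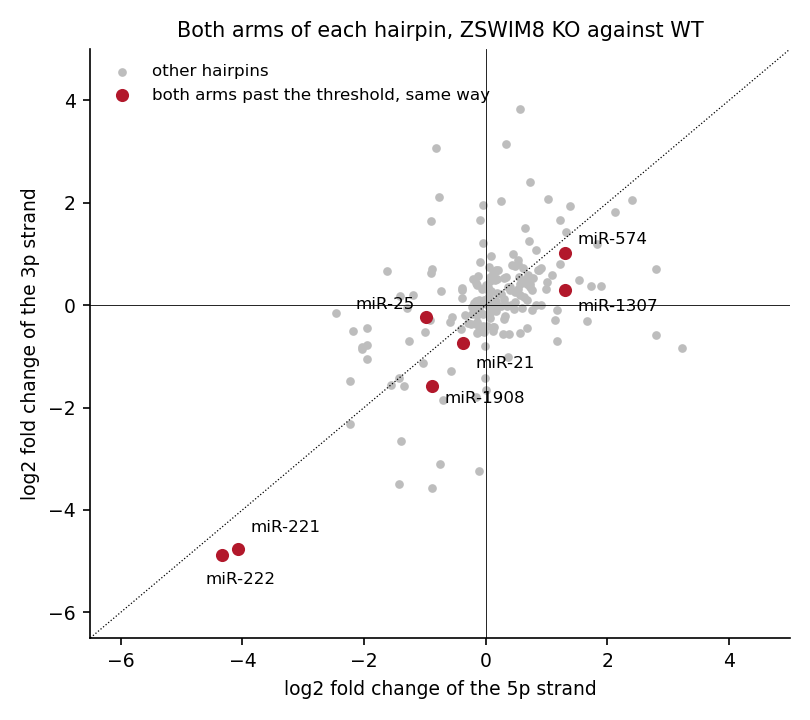
Log2 fold change of the 3p strand against that of the 5p strand for the 188 hairpins with both arms measured, ZSWIM8 KO against WT. Red points have both arms past an adjusted p of 0.05 in the same direction, and the dotted line marks equal change. miR-221 (-4.07, -4.76) and miR-222 (-4.34, -4.88) lie apart from the other hairpins. The place of miR-222 along the 5p axis is set by the prior count, since miR-222-5p had a mean of 0 in ZSWIM8 KO.

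The ratio of the 2 guide strands was alike in the 4 groups, while ratios that involve the scarce 5p strands were less even. miR-222-3p over miR-221-3p was 1.58 in ZSWIM8 KO and 1.69 in WT, and 1.63 in sgCYRANO and 1.53 in sgNT. The log2 fold change of miR-222-3p minus that of miR-221-3p was -0.11 in ZSWIM8 KO, with a 95% interval of -1.59 to 1.37, and 0.09 in sgCYRANO, with an interval of -0.27 to 0.45. The wide interval in ZSWIM8 KO follows from the errors of the deposited test and does not show that both strands fell alike. The 3p strands made up 94.9% of the cluster's CPM in ZSWIM8 KO and 96.0% in WT, and 96.7% in sgCYRANO and 96.5% in sgNT. miR-221-3p over miR-221-5p was 7.16 in ZSWIM8 KO and 10.3 in WT, and 11.5 in sgCYRANO and 12.1 in sgNT. The ZSWIM8 KO ratio rests on 6 reads of the 5p strand. miR-222-3p over miR-222-5p was at least 21.4 in ZSWIM8 KO, with the 5p strand at the limit of 3 reads, and 112.4 in WT, and it was 476.4 in sgCYRANO and 168.1 in sgNT, on 2 and 7 reads of the 5p strand.

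Strands from other hairpins of chromosome X did not fall as a group. Of 61 other measured strands that RefSeq places on this chromosome alone, 9 were called higher and 1 lower in ZSWIM8 KO, with a median log2 fold change of 0.25, beside 41 higher, 45 lower and a median of 0.08 over all 868. The 31 of them at 10 CPM or more lay between -0.45 (miR-514a-3p) and 1.04 (miR-450b-5p). The 1 that fell was miR-223-5p, a myeloid strand 20.3 Mb away, at -0.38 ± 0.10 in the authors' deposited table. The nearest measured hairpins on the centromere side form a group from miR-532 to miR-502, 4.26 to 4.27 Mb away. Of its 11 measured strands 9 had a positive fold change, where 45.9% of the fold changes of all 868 microRNAs lay below 0. Only miR-532-5p of this group passed, with 2131 CPM in ZSWIM8 KO against 1730 CPM in WT (0.30 ± 0.11 in the authors' deposited table, adjusted p = 0.0484, edgeR). Further values in the authors' deposited table were 0.53 ± 0.33 for miR-532-3p, 0.85 ± 0.44 for miR-188-5p, 0.31 ± 0.20 for miR-500a-3p and 0.54 ± 0.38 for miR-500a-5p. Within 10 Mb 2 further strands were called higher, miR-6894-3p, which stood at 3.13 CPM in ZSWIM8 KO and 0.180 CPM in WT, and let-7f-5p (0.32 ± 0.10 in the authors' deposited table), which also has a locus on another chromosome. On the telomere side of the cluster the nearest measured strands were miR-548f-3p, which has further loci, miR-23c at under 1 CPM, and miR-651-5p, 37.6 Mb away, with 69.9 CPM in ZSWIM8 KO and 65.8 CPM in WT (0.09 ± 0.23 in the authors' deposited table). The measured strands therefore bracket the cluster at distances of 4.26 Mb on one side and, at 10 CPM or more, 37.6 Mb on the other.

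Further calls among strands of chromosome X alone were of miR-421 (0.80 ± 0.19), miR-361-5p (0.68 ± 0.17), miR-450b-5p (1.04 ± 0.20), miR-450a-5p (0.90 ± 0.19), miR-503-5p (0.82 ± 0.23), miR-105-5p (1.01 ± 0.17) and miR-767-5p (0.47 ± 0.16), all higher in ZSWIM8 KO in the authors' deposited table. The nearest of them to the cluster, miR-421, lies 28.5 Mb away. The strands miR-92a-3p (-0.24 ± 0.07) and miR-19b-3p (-0.42 ± 0.11) were called lower in the authors' deposited table and have a second locus on another chromosome. In sgCYRANO 0 of the 61 measured strands of chromosome X alone passed, with a median log2 fold change of -0.10.

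**Figure D5:**
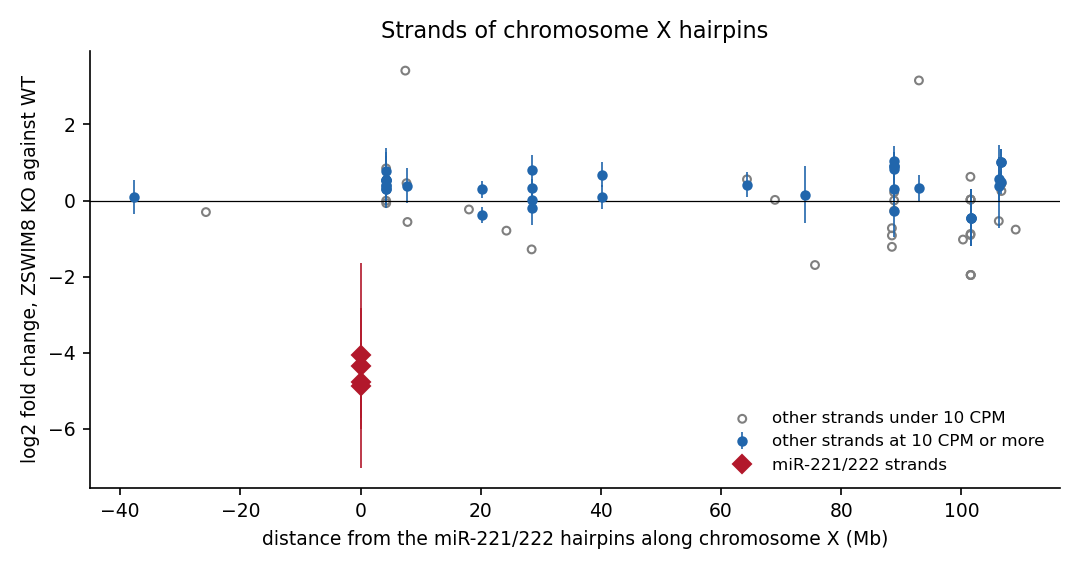
Log2 fold change in ZSWIM8 KO against WT for strands of hairpins on chromosome X alone, by distance in Mb from the miR-221 and miR-222 hairpins. Bars are 95% intervals, drawn for the cluster and for strands at 10 CPM or more. The 31 other strands at 10 CPM or more lie between -0.45 and 1.04, against -4.07 to -4.88 for the 4 cluster strands.

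Set beside other microRNAs for which target-directed decay has been described, the cluster moved the opposite way to miR-7-5p in ZSWIM8 KO. Of 6 such microRNAs, the 3p strands of the cluster among them, 4 were measured. Of these 1 was called higher (miR-7-5p) and 2 lower (the 3p strands of the cluster), beside 41 higher and 45 lower of all 868. The fourth, miR-29b-3p, whose described decay target is NREP in mouse, had 25.1 CPM in ZSWIM8 KO and 18.3 CPM in WT (0.45 ± 0.34 in the authors' deposited table, adjusted p = 0.510, edgeR). miR-30b-5p and miR-30c-5p were not among the tested rows. In sgCYRANO 1 of the 4 was called, miR-7-5p, where 0.119% of all 837 passed in either direction. miR-29b-3p had -0.16 ± 0.23 there in the authors' deposited table.

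Erythroid microRNAs, which are known to accumulate as miR-221 and miR-222 decline during erythroid maturation, did not pass as higher. Of 6 measured in ZSWIM8 KO, 0 were called higher and 1 lower, and 5 did not pass (edgeR). Over all 868, 41 were called higher and 45 lower, so 0 of 6 called higher is near that share. The median log2 fold change of the 6 was 0.19, beside 0.08 over all 868. miR-144-3p had 239.1 CPM in ZSWIM8 KO and 119.4 CPM in WT (1.0 ± 0.60 in the authors' deposited table, adjusted p = 0.364, edgeR). miR-451a, the most erythroid-restricted of them, had 956.3 CPM in ZSWIM8 KO and 574.5 CPM in WT (0.74 ± 0.62 in the authors' deposited table, adjusted p = 0.583, edgeR). miR-144-5p had 0.45 ± 0.41, miR-486-5p -0.11 ± 0.22 and miR-210-3p -0.06 ± 0.14, while miR-486-3p fell by 0.40 ± 0.14 on the log2 scale in the authors' deposited table. In sgCYRANO 0 of the 6 were called, where 0.119% of all 837 passed in either direction. Their median was 0.01, with values from -0.42 for miR-210-3p to 0.13 for miR-451a in the authors' deposited table.

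The microRNAs whose pattern was most like that of the cluster were all scarce. Likeness was the straight-line distance over the 2 log2 fold changes from the mean of the 4 strands (-4.51 in ZSWIM8 KO and -0.52 in sgCYRANO), among 561 others with a mean of 1 CPM or more in each table. The nearest was miR-7706, at a distance of 0.53, with 1.14 CPM in sgCYRANO against 1.13 CPM in sgNT. It had a mean of 0 in ZSWIM8 KO against 2.69 CPM in WT. By the limit of 3 reads, with the WT mean taken as exact, that is at least 6.32-fold lower. Next came miR-6503-3p at 1.07 and miR-1263 at 1.77. miR-1263 had a mean of 0 in ZSWIM8 KO against 7.89 CPM in WT, at least 18.6-fold lower by the limit of 3 reads, and 7.18 CPM in sgCYRANO against 5.26 CPM in sgNT. miR-944, at 2.27, had 2.57 CPM in ZSWIM8 KO against 12.7 CPM in WT, and miR-10395-3p, at 2.28, had 0.881 CPM in ZSWIM8 KO against 5.31 CPM in WT and was not called (adjusted p = 0.417 in the authors' deposited table, edgeR). The 4 cluster strands themselves lay 0.35 to 0.92 from their mean, so 1 other microRNA fell within their own spread. This count and the distances depend on the prior count, since miR-7706, miR-1263 and miR-222-5p had means of 0 in ZSWIM8 KO. The sgCYRANO mean of the 4 takes in miR-222-5p at -1.42 in the authors' deposited table, on 2 reads in sgCYRANO and 7 in sgNT.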

How the data were processed

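The 12 K562 libraries were made from total RNA and a NEBNext kit for small RNA, per the labels. In the submitters' processing notes the tools are edgeR, featureCounts, STAR, FastQC 0.11.2 and bcl2fastq and the build is hg19, with no role or order. The sources used here do not say how reads shared by near-identical microRNAs were counted.

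For each comparison the authors deposited an edgeR table that holds a fold change and a mean CPM, both in log2 units, then F (a score), a p-value and an adjusted p-value. Recomputing the adjustment (Benjamini-Hochberg) from the rows differed from the deposited values by at most 1.09e-06, so the rows are all that was tested.

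Group means in CPM were computed from the mean log2 CPM (prior count 2) and the log2 fold change (prior count 0.125) for libraries scaled to 1000000 reads, and summed to that value in each group. Low means lay on sums of whole reads, each library's CPM rounded to 3 decimals: 326 of 336 values under 2 CPM in sgCYRANO, 336 of 345 in sgNT, 344 of 344 in ZSWIM8 KO and 362 of 363 in WT fell within 0.0003 CPM of such a sum. An offset that grew with the value was first subtracted. Since the test was fed scaled values, its counting variance was set as if each library held 1000000 reads.

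Each standard error is the size of the log2 fold change divided by the normal deviate that matches its p. Differences between comparisons and between arms were tested against a normal reference, two-sided, with Benjamini-Hochberg adjustment over all microRNAs or hairpins (SciPy 1.17.1, Python 3.11.15), after tests on simulated data. Counting intervals are exact (Clopper-Pearson, conditional on the total) at 95%.

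The strands, lists and tests were chosen with earlier results of these data known. Named microRNAs are the 4 strands, miR-7-5p, the decay, erythroid and marker lists, the measured hairpins of chromosome X nearest the cluster and those called there, and the 5 nearest in pattern. miR-1908, miR-21, miR-25, miR-100-5p, miR-514a-3p, the miR-200 family and the promoter motifs were chosen after their values were seen. Sequences are from RefSeq.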

Additional observations from a re-analysis of the deposited data

How the results depend on the processing

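Of 80 recomputed values, 76 kept their direction and their side of the threshold or, for a level, stayed within counting error. Centring on the median and errors taken from F changed no call. A prior count of 0 was applied only to 16 group levels, which carry no call, and these stayed within counting error. The 4 values of the 80 that were weaker concern ZSWIM8 KO against WT. Leaving out microRNAs under 10 CPM left 2 of the 4 strands, both called, since miR-221-5p and miR-222-5p are below that mean. The 2 left reach it through WT alone. Reading the deposited F with 4 degrees of freedom left 2 of 4 called: miR-221-5p (log2 fold change -4.07, adjusted p = 0.15) and miR-222-5p (-4.34, adjusted p = 0.425) no longer passed by edgeR's F. The shared variance behind F is not undone by this reading. No paired analysis was possible because the tables hold the authors' comparisons and no values of single libraries. For that reason left-out replicates, another tool and other filters on counts were not run. The number of reads limits the 5p strands most: 0 and 6 reads in ZSWIM8 KO and 2 reads of miR-222-5p in sgCYRANO.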
